A study of Homo sapiens with 16 samples.

Results

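The 47 olfactory receptor genes of families 51 and 52 were followed across 16 libraries of RNA from 8 blood cancer cell lines. Members were the gene symbols made of OR51 or OR52, a single letter and digits, without pseudogene symbols, and they were 47 of the 23230 symbols counted in each library. The pair of families was picked because olfactory receptor counts were high in K562, so the K562 values below describe what they were selected on and were not tested against the other lines. Y518R is a peptide that binds DPY30, and 3R is a peptide that does not bind it and served as the control. DPY30 is a subunit shared by the complexes that methylate lysine 4 of histone H3.

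Each line had 1 Y518R library and 1 3R library. Per the labels, K562 carries BCR-ABL, MOLM13 and THP1 carry MLL-AF9, RS4-11 carries MLL-AF4 and KOPN8 carries MLL-ENL. RAJI is a Burkitt's lymphoma line, P493-6 is a model of Burkitt's lymphoma, and JURKAT is labelled as a Myc-dependent T cell leukemia. All lines grew in the same medium (Advanced RPMI) and the same serum (fetal bovine, 2.5%). Neither peptide dose nor exposure time is stated in the labels. Each line is a single established culture model, and nothing in the labels says that the libraries of a line came from separate cultures beyond the peptide.

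Olfactory receptors are receptors of the G protein-coupled class that sense odorants in neurons of the nasal lining, where a mature neuron expresses a single receptor allele. Families 51 and 52 belong to the older class of these genes, known as class I, and sit together in a large array on chromosome 11. The beta-globin genes lie inside that array, and their locus control region, an enhancer that drives globin in erythroid cells, lies between HBE1 and the OR51B genes. K562 is an erythroleukemia-like line known for embryonic and fetal globin.

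Libraries held 19354300 to 43003124 gene counts, with 30373849 in the K562 Y518R library and 22935898 in the K562 3R library. Levels are given as CPM, counts per 1000000 gene counts of the library, and a count of 0 allows up to 3 counts, or 0.0698 to 0.155 CPM depending on the library. Reads that fell in no gene were 17.7% to 26.9% of reads in 15 libraries and 44.7% in RAJI 3R, and were 20.4% in K562 Y518R and 20.6% in K562 3R. The erythroid character known of K562 was seen in GATA1, a master factor of red cell genes, which stood at 328.7 CPM in K562 Y518R and 282.4 CPM in K562 3R, against at most 0.310 CPM in the 14 libraries of other lines. Both K562 libraries exceeded all 14 others for 8 of 9 erythroid markers, against 10% of all symbols. They did so for 8 of 12 erythroid transcription factors and cofactors, a list that shares GATA1, KLF1 and TAL1 with the markers. The exceptions were TAL1, LMO2, BCL11A and ZBTB7A. TAL1 reached 429.8 CPM in another line, against 254.1 CPM in K562 Y518R and 290.2 CPM in K562 3R. Intervals are exact 95% intervals that cover counting error only.

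The summed members had 5446 counts in K562 Y518R and 3995 counts in K562 3R. These sums were 179.3 CPM (174.6 to 184.1) in K562 Y518R and 174.2 CPM (168.8 to 179.7) in K562 3R. In the 14 libraries of the other lines the sum ran from 0 to 28 counts, with a lowest value of 0, a median of 0.163 and a highest value of 0.842 CPM. The K562 and other-line libraries did not overlap, and the K562 mean of 176.7 CPM was 291 times that of the next line. In RNA from whole cultures, more cells with the transcripts and more transcript per cell cannot be told apart.

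Among the other lines the order of the mean sums was RS4-11 with 0.607 CPM, MOLM13 with 0.409, JURKAT with 0.200, KOPN8 with 0.134, THP1 with 0.110, P493-6 with 0.100 and RAJI with 0.0775 CPM. The libraries of neighbouring lines in that order overlapped throughout. Both RS4-11 libraries were above every library of JURKAT, KOPN8, THP1, P493-6 and RAJI, which reached at most 0.226 CPM. The RAJI Y518R library had no member count at all, which allows up to 0.155 CPM. The plot of summed CPM by line shows K562 far above the other 7 lines. The highest libraries of those were above their own 3-count limits. They were RS4-11 Y518R with 0.842 CPM (limit 0.0902), MOLM13 3R with 0.689 (limit 0.122) and RS4-11 3R with 0.372 (limit 0.0698).

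**Figure D1:**
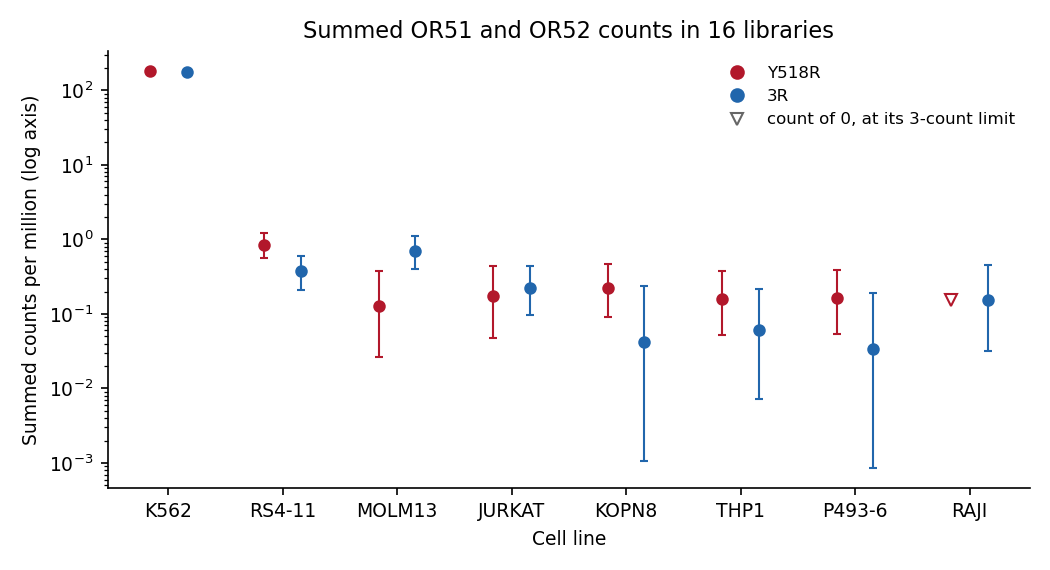
Summed OR51 and OR52 CPM (log axis) in each library, by cell line, with Y518R in red and 3R in blue; bars are exact 95% counting intervals and the open triangle marks a count of 0 drawn at its 3-count limit. The K562 points are at 179.3 CPM (Y518R) and 174.2 CPM (3R), and no other library is above 0.842 CPM.

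Most members were silent. Of the 47 members, 27 had 0 counts in all 16 libraries and 20 had a count somewhere. A K562 count was seen for 14 members, of which 10 had counts only in K562 and 4 also elsewhere, and the other 6 had counts only outside K562. OR52A4, which the annotation used here lists as a pseudogene, was among the 27. At 10 or more counts in a K562 library stood 6 of 47 members (12.8%), against 56.5% of all 23230 symbols and 8 of the 330 olfactory receptor symbols of other families (2.42%). Both K562 libraries were above all 14 others for 9 of 47 members (19.1%), against 10% of all symbols and 7 of 330 other olfactory receptors (2.12%). These shares follow from the choice of the families and nothing is read from them. The other 8 members with a K562 count had at most 9 counts in either K562 library.

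OR51B5 and OR51B4, receptor genes on the locus control region side of the globin genes, held nearly all the counts. OR51B5 had 3799 counts (125.1 CPM) in K562 Y518R and 2785 counts (121.4 CPM) in K562 3R, against 0 to 3 counts in the other 14 libraries. Its K562 mean of 123.2 CPM placed it at rank 2088 of 23230 symbols. OR51B4 had 1411 counts (46.5 CPM) in K562 Y518R and 1029 counts (44.9 CPM) in K562 3R, against 0 or 1 count elsewhere, and stood at rank 5202. Both K562 libraries of both genes were clear of every other library. With libraries pooled, K562 was 4946 times the other lines for OR51B5 (2688 to 10319), from 6584 counts in K562 against 10 in the 14 others. For OR51B4 it was 3666 times (1569 to 11300), from 2440 counts against 5.

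The order of these genes depended on the length used. Per kilobase of annotated exon, OR51B4 (933 bases) averaged 48.9 CPM in K562 and OR51B5 (3965 bases) averaged 31.1 CPM. OR51B5 has a single-exon transcript of 939 bases, and over that length its level would be 131.3 CPM per kilobase. Both level values for OR51B5 come from the same counts, and the labels do not state which transcripts were counted.

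A group of 4 further members passed 10 counts in K562 and was at 0 in all 14 other libraries. OR51B2, beside OR51B4, had 84 counts in K562 Y518R and 78 in K562 3R. OR52D1, the farthest of these on the HBE1 side, had 62 counts in K562 Y518R and 43 in K562 3R. OR52A5, on the HBB side, had 45 counts in K562 Y518R and 38 in K562 3R. For these 3 genes both K562 libraries had more than 10 times the limit that a count of 0 allows in the library itself. Against 3 counts pooled over the 14 other libraries, K562 was at least 406 times higher for OR51B2, at least 263 times for OR52D1 and at least 208 times for OR52A5.

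OR51I1, which lies between OR51Q1 and OR51I2, had 31 counts (1.02 CPM) in K562 Y518R and 7 counts (0.305 CPM) in K562 3R. Its pooled K562 level was at least 95.2 times the level that 3 counts over the other 14 libraries would give. Per kilobase of exon the K562 mean levels were 3.28 CPM for OR51B2, 1.84 for OR52D1, 0.701 for OR51I1 and 0.389 for OR52A5, whose exons span 4039 bases. On that scale these 4 genes were well below OR51B4 in the same cells.

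The members just inside and just outside 10 counts were OR51I1, with a highest K562 count of 31, and OR51B6, with 3 counts in K562 Y518R and 9 in K562 3R. OR51B6 was at 0 in all other libraries. The remaining low members were OR52A1 (5 counts in K562 Y518R and 0 in K562 3R), OR51Q1 (3 with Y518R and 1 with 3R), OR51M1 (1 with Y518R and 2 with 3R) and OR51I2 (0 with Y518R and 2 with 3R). OR52E2 and OR52N4 each had 1 count in K562 Y518R, and OR52N2 had 1 in K562 3R. Single counts of this kind cannot be told from 0 at this depth.

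**Figure D2:**
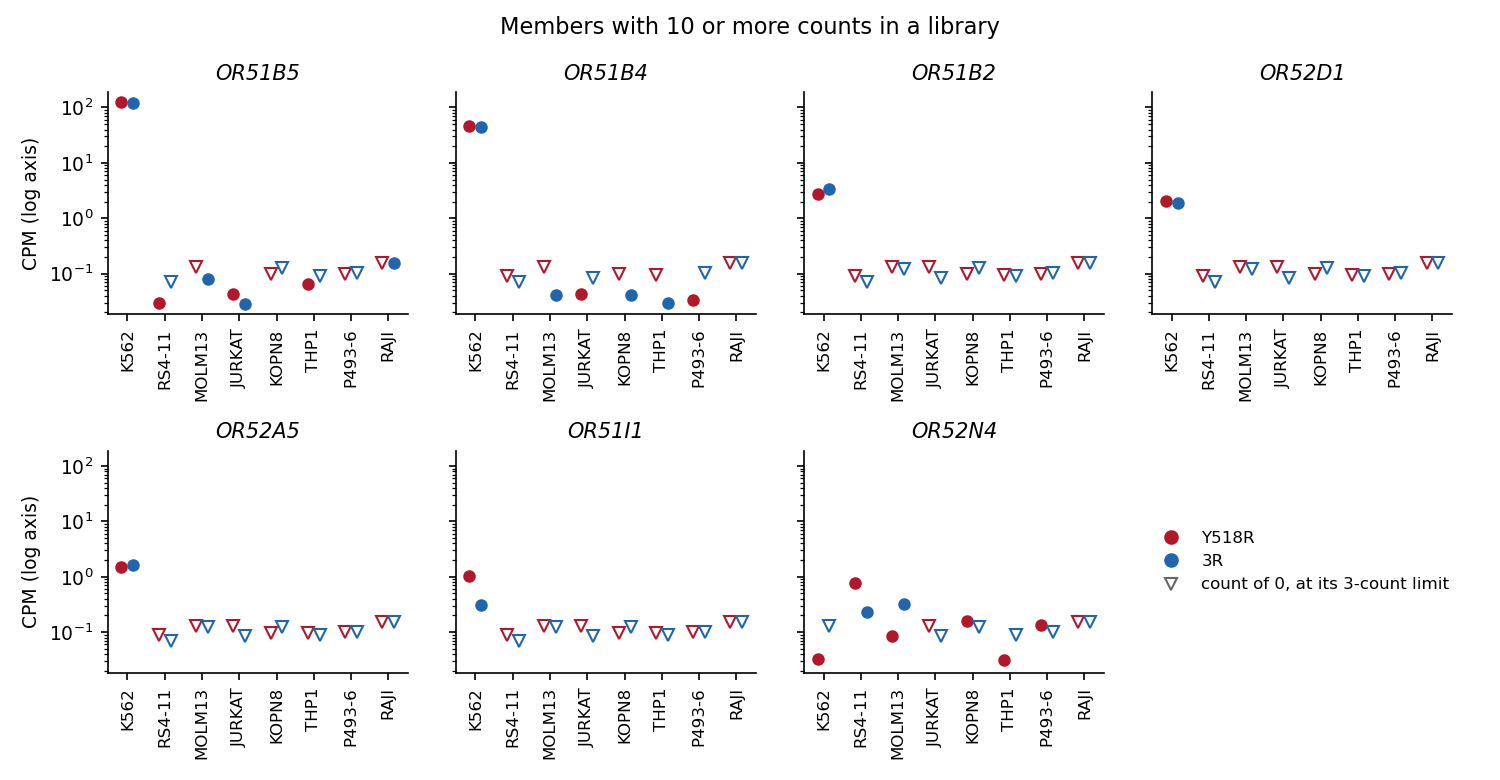
CPM (log axis) of the 7 members with 10 or more counts in any library, by cell line, with Y518R in red and 3R in blue; open triangles mark counts of 0 drawn at the 3-count limit of the library. K562 stands alone for 6 members, and OR52N4 is highest in RS4-11, at 0.782 CPM with Y518R.

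OR51B5 made up 69.8% of the member counts in K562 Y518R (68.5 to 71.0) and 69.7% in K562 3R (68.3 to 71.1). OR51B4 made up 25.9% in K562 Y518R and 25.8% in K562 3R. Together they were 95.7% of member counts in K562 Y518R and 95.5% in K562 3R. The ratio of OR51B4 to OR51B5 counts was also close between the peptides, at 37.1% in K562 Y518R and 36.9% in K562 3R. The members in turn were 90.2% of all olfactory receptor counts in each K562 library, and at most 19.4% in any other library.

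Members with K562 counts lay mostly together along chromosome 11. In the GRCh38 annotation of GENCODE release 29, the array runs from OR52B4 to OR52W1, and the globin genes HBB, HBD, HBBP1, HBG1, HBG2 and HBE1 lie between OR51V1 and OR51B4. The 12 members from OR52A5 to OR52D1 held 5444 of 5446 member counts in K562 Y518R and 3994 of 3995 in K562 3R. A K562 count was found for 11 of these 12 and for 3 of the 35 members beyond them, and those 3 had 1 count each. All 6 members at 10 or more K562 counts were in the inner stretch, whose ends were set after the counts were seen, so no test was made.

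The inner stretch was lopsided around the globin genes. On the HBE1 side, all 9 members from OR51B4 to OR52D1 had a K562 count. Their sum was 5394 counts in K562 Y518R and 3956 in K562 3R. OR51B4 and OR51B5 gave 5210 of these in K562 Y518R and 3814 in K562 3R, so the imbalance rests mainly on them. OR51M1, OR51Q1 and OR51I2 had at most 3 counts in a library, which a count of 0 also allows. On the HBB side, 2 of 3 members had a K562 count, with a sum of 50 counts in K562 Y518R and 38 in K562 3R. The member nearest to HBB, OR51V1, was at 0 in all libraries.

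Levels were not ordered by distance alone. From the start of HBE1 to the middle of the coding sequence, OR51B4 was 31.5 kb upstream, OR51B2 53.9 kb, OR51B5 73.1 kb and OR51B6 82.0 kb. OR51B6, at 12 counts in both K562 libraries together, is a near neighbour of OR51B5, at 6584. OR52D1 was 219 kb upstream with 105 counts, and between it and OR51B6 lay OR51M1 with 3 counts, OR51Q1 with 4, OR51I1 with 38 and OR51I2 with 2. On the other side OR52A5 was 138 kb away with 83 counts, OR52A1 118 kb with 5 counts and OR51V1 69.7 kb with 0. In both directions a gene with few counts lay closer to HBE1 than a gene with more.

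**Figure D3:**
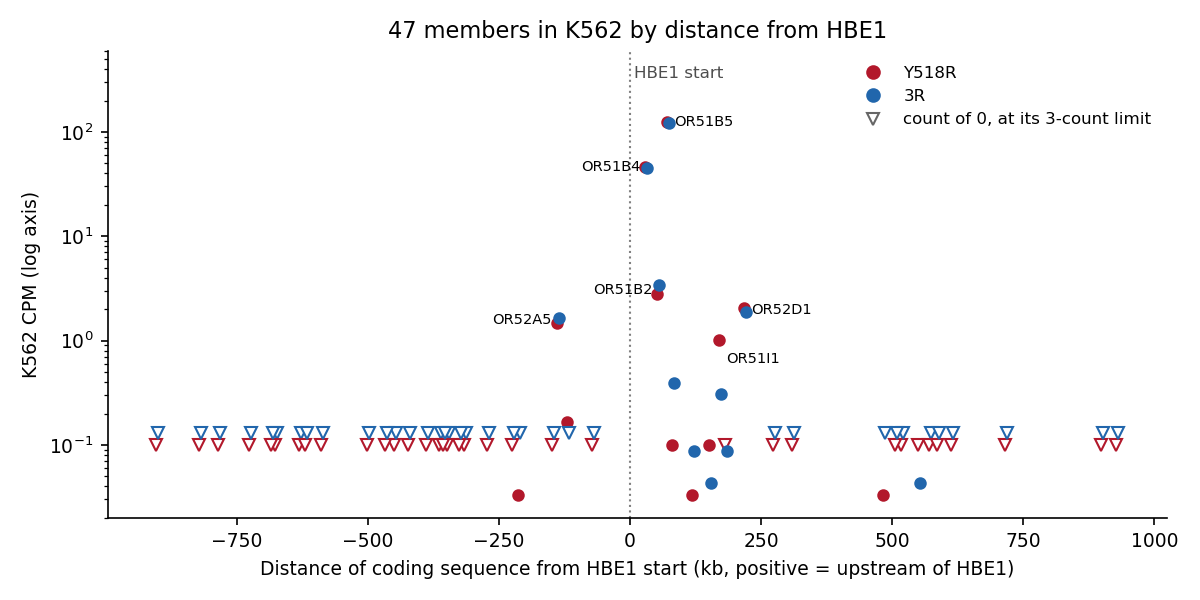
CPM in K562 (log axis) of all 47 members against the distance in kilobases from the start of HBE1 to the middle of each coding sequence, with positive values upstream of HBE1; red is Y518R, blue is 3R (drawn slightly apart), and open triangles mark counts of 0 at the 3-count limit. Members above 1 CPM lie between 138 kb on the HBB side and 219 kb on the HBE1 side, and OR51B5 and OR51B4 are the highest.

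The strand gave no simple split. OR51B4, OR51B2, OR51B5, OR51I1 and OR52A5 are annotated on the minus strand, like the globin genes, and OR52D1 is on the plus strand. OR51V1 and OR52A1 are on the minus strand too, with 0 and 5 counts. OR51B6, OR51M1, OR51Q1 and OR51I2, all on the plus strand, had at most 12 counts over both K562 libraries.

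The annotation limits what the OR51B5 counts stand for. OR51B5 has 5 annotated transcripts, 2 of which reach past OR51B2, and its full span encloses 7 other members. An exon of OR51B5 overlaps an exon in 2 of the 3 transcripts of HBE1 and in 1 of the 3 transcripts of HBG2, and in none of HBG1, HBD or HBB. AC104389.4, another annotated gene, also has an exon that overlaps one of OR51B5. The exons of OR51B4, OR51B2, OR52D1, OR52A5 and OR51I1 overlap those of no other gene. The spans of OR51B4, OR51B2, OR52D1 and OR51I1 do overlap a gene that is no member, and that of OR52A5 does not. Whether reads of such a gene were counted under these members was not tested. Whether reads of long transcripts that join HBE1 and OR51B5 exons were counted under OR51B5 was not tested, since the files give 1 number per symbol and the labels do not state a strand setting.

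Promoter sequences from RefSeq (GRCh38.p14) were matched by symbol to 32 of the 47 members. Of the 6 members at 10 or more K562 counts only OR52A5 was matched, so the shares below describe almost only silent members. The 250 bases before the start are printed for 3 members on the HBB side, because they run from a member with 1 K562 count, through one with 83, to one with 0. OR52A4 lies between OR52E2 and OR52A5, and OR52A1, with 5 K562 counts, lies between OR52A5 and OR51V1. All 3 are on the minus strand and are written 5′ to 3′ in the direction of transcription. Capitals mark GATAA, the core of the site that GATA factors bind, read on either strand. The windows are chr11:5059628-5059877 for OR52E2, chr11:5138357-5138606 for OR52A5 and chr11:5200683-5200932 for OR51V1.
OR52E2: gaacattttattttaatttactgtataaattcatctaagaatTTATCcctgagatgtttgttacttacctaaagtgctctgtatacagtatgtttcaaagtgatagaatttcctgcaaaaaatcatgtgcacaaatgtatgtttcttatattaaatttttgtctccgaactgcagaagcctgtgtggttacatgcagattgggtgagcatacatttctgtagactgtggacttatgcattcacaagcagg
OR52A5: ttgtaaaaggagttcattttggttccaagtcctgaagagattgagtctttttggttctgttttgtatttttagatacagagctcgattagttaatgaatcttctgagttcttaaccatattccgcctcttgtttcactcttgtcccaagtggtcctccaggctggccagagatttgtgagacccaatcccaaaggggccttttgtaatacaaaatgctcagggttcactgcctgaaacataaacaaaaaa
OR51V1: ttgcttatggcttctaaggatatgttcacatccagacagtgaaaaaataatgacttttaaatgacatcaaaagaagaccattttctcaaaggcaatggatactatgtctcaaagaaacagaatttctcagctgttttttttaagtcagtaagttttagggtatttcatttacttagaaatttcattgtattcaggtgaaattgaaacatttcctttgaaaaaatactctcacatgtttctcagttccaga
GATAA occurs once in the OR52E2 window, on the opposite strand, and not in the windows of OR52A5 and OR51V1. CCNCNCCC, the kind of sequence that KLF1, the erythroid Krüppel-like factor, binds, is in none of the 3 on either strand. Over windows of the same length, GATAA was in 13 of 34 member entries (38.2%) and in 20.4% of 35116 promoters in the table. CCNCNCCC was in 2 of 34 member entries (5.88%) and in 53.4% of all promoters. The base composition of the windows was not compared, so nothing is read from the differences between these shares. A match of letters is a description of the window and says nothing of binding.

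The globin genes between the members were far more abundant. HBE1, the embryonic beta-like globin, had 115191 counts in K562 Y518R and 72071 in K562 3R. OR51B5 had 3.30% as many counts as HBE1 in K562 Y518R and 3.86% in K562 3R, on counts not scaled for length. HBG2, a fetal globin, had 103696 counts in K562 Y518R and 80727 in K562 3R, and HBG1, its close copy, had 56070 in K562 Y518R and 41058 in K562 3R. The reads of the near-identical HBG1 and HBG2 may be split between them. HBB, the adult globin, had 4 counts in K562 Y518R and 5 in K562 3R.

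In all 6 beta-globin genes both K562 libraries were above the 14 others, as they were in 4 of 5 alpha-globin genes. The share over all symbols was 10%. Other lines still had 15 to 61 counts of HBE1, at most 0.0909% of the K562 mean CPM. OR51B4 reached at most 0.0948% and OR51B5 at most 0.126% of their own K562 means in another line. In the median library of the other lines OR51B4 and OR51B5 were at 0, while HBE1 was at 0.0256% of its K562 mean.

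Apart from the globin genes, no counted gene of another kind that lies among the members had both K562 libraries above all others. Over all symbols the share was 10%, so nothing is read from this absence. In the count files, 23 genes that are no members lie between OR52B4 and OR52W1. Of these, 10 had 10 or more counts in a K562 library, against 56.5% of all symbols. The 5 of these with both K562 libraries above all others were globin genes (HBD, HBBP1, HBG1, HBG2 and HBE1). The other 5 were TRIM21, TRIM68, TRIM5, TRIM6 and TRIM22, genes of the tripartite motif family that includes antiviral factors. TRIM22 had 10 counts in K562 Y518R and 13 in K562 3R, against up to 7942 in another line. The genes of olfactory receptor family 56 inside the array (OR56B1, OR56A3, OR56A5, OR56A4, OR56A1 and OR56B4) were at 0 in K562.

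Genes of olfactory signalling were also looked up in K562. No gene of 15 on an olfactory signalling list had both K562 libraries above all others, against 10% of all symbols. At 0 in both were 6 of the 15. OMP, the marker protein of mature olfactory neurons, CNGA2, a subunit of their cyclic nucleotide-gated channel, and RTP1 and RTP2, which carry receptors to the cell surface, were at 0 in both K562 libraries. GNAL, the G protein subunit that couples the receptors, had 1 count in each K562 library. Of 7 olfactory neuron markers 4 were at 0 in both K562 libraries, and their summed level was 59.0 CPM in K562 Y518R and 57.9 CPM in K562 3R, inside the range of 32.2 to 105.2 CPM in other lines. ADCY3, an adenylyl cyclase used by many cells, gave most of that sum, with 57.6 CPM in K562 Y518R and 57.2 CPM in K562 3R. None of 5 receptor chaperones was above all others in K562, and 3 of them were at 0 there. Of 9 factors known from olfactory receptor choice, 1 was above all others in K562, near the 10% of all symbols. It was LDB1, a cofactor also used in erythroid cells. LDB1 had 243.6 CPM in K562 Y518R and 235.5 CPM in K562 3R, against at most 161.9 CPM elsewhere. With lists this short, nothing is read from how many of their genes were above all others.

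Olfactory receptors of the other families had 592 counts (19.5 CPM) in K562 Y518R and 436 counts (19.0 CPM) in K562 3R, over 330 symbols. Elsewhere these families reached 17.7 CPM, in JURKAT Y518R. The highest in K562 were OR2B6 on chromosome 6, with 240 counts in K562 Y518R and 208 in K562 3R, and OR2W3 on chromosome 1 with 172 in K562 Y518R and 106 in K562 3R. OR2B6 reached 100 counts and OR2W3 70 counts in another line's library. OR2AT4, OR8G5 and OR8A1, also on chromosome 11, followed with 61, 29 and 22 counts in K562 Y518R and 47, 20 and 16 in K562 3R. OR2AT4 and OR8A1 were at 0 in all 14 libraries of other lines and OR8G5 had at most 1 count there, so counts found almost only in K562 were also seen outside families 51 and 52.

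OR52N4 was the member with a different pattern. It lies 485 kb upstream of HBE1, near TRIM22 and outside the inner stretch. It had 26 counts in RS4-11 Y518R and 10 in RS4-11 3R, the only member at 10 counts outside K562 (1 of 47, against 59.4% of all symbols at 10 or more in an RS4-11 library). In MOLM13 it had 2 counts with Y518R and 8 with 3R, in KOPN8 5 and 0, in P493-6 4 and 0, and in THP1 1 and 0. RAJI and JURKAT had none. OR52N4 gave 56 of the 100 member counts outside K562. The 6 members with counts only outside K562 gave at most 6 counts in a library: OR51T1 had 6 in RS4-11 3R and OR52W1 had 6 in JURKAT 3R, and OR51E1, OR52B6, OR52I1 and OR52K1 had at most 4.
TRIM22, an expressed gene near OR52N4, was at 69.3 CPM in RS4-11 Y518R and 86.4 CPM in RS4-11 3R. Over the 14 libraries outside K562 it ran from 0.566 to 263.8 CPM. Exons of OR52N4 overlap those of no other gene in the annotation, but its span overlaps a gene that is no member. The name of that gene was not recorded. Whether reads of another gene were counted under OR52N4 was not tested.

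The comparison of Y518R with 3R took no part in choosing the members. Within K562 the member sum was close between the peptides: the log2 ratio of Y518R over 3R was 0.04, with an interval from -0.02 to 0.10. With TMM scaling it was 0.07 and its interval, 0.01 to 0.13, no longer spanned 0. OR51B5 had a log2 ratio of 0.04 (-0.03 to 0.11) and OR51B4 of 0.05 (-0.07 to 0.17). OR51B2 had -0.30 (-0.76 to 0.17), OR52D1 0.12 (-0.46 to 0.72) and OR52A5 -0.16 (-0.82 to 0.50). For these 5 genes the interval, on CPM without TMM scaling, spans 0. For OR51B5 its upper end of 0.11 on the log2 scale covers counting alone and sets no limit on a peptide effect. With 1 library per peptide no test was possible in K562.

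OR51I1 was the exception, with 31 counts in K562 Y518R and 7 in K562 3R, a 3.34-fold difference and a log2 ratio of 1.74 (0.53 to 3.17). Among the 6 members at 10 or more counts in either K562 library, 1 was at least 2-fold higher with Y518R (3.55% of 13131 symbols were) and 0 were at least 2-fold lower (2.6% of symbols were). OR51I1 reached 10 counts through its higher library alone, so nothing is read from these counts. The median log2 ratio was 0.05 over the 6 members and 0.00 over the 13131 symbols. OR51B6, with 3 counts in K562 Y518R and 9 in K562 3R, missed that minimum and had a log2 ratio of -1.99 (-4.51 to 0.01).

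The globin genes and the erythroid factors of the same pair moved by more than the members' sum in several cases. HBE1 had a log2 ratio of 0.27 (0.26 to 0.28), HBBP1, the beta-globin pseudogene, of 0.30, and HBD, the minor adult globin, of 1.06 (0.76 to 1.36). HBG1 had 0.04 and HBG2 had -0.04. HBZ, the embryonic alpha-like globin, had 0.42, GATA1 had 0.22 and KLF1 had 0.13, while TAL1, another erythroid factor, had -0.19. These intervals cover counting only, and the spread between cultures given the same peptide was not measured.

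**Figure D4:**
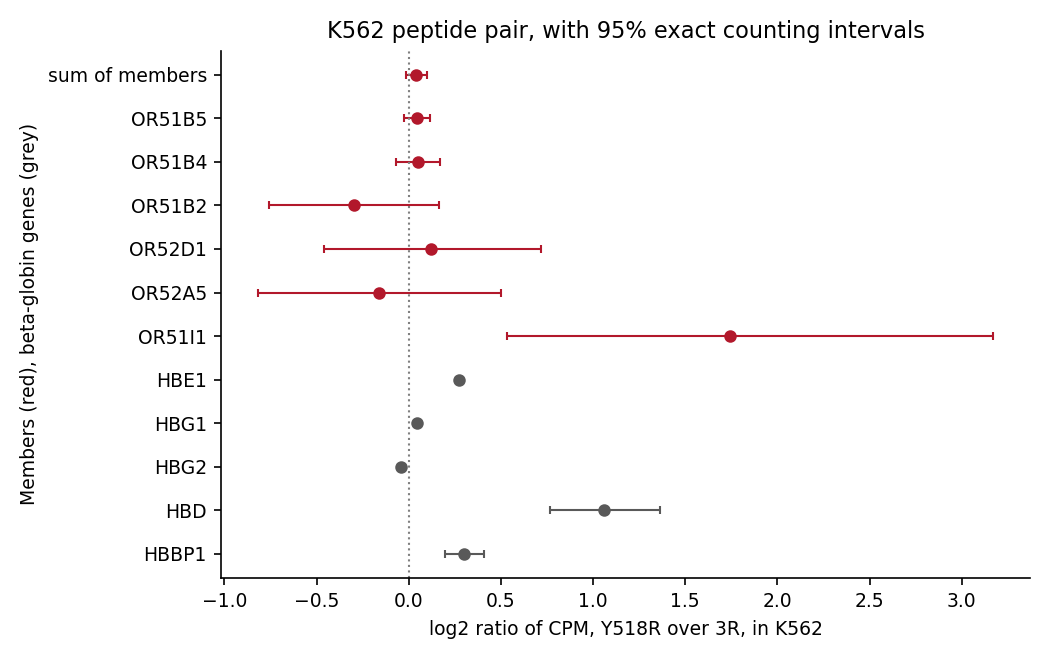
Log2 ratio of CPM, Y518R over 3R, in K562 for the member sum and the 6 members at 10 or more counts (red) and for the beta-globin genes at 10 or more counts (grey), with exact 95% counting intervals. The member sum, OR51B5 and OR51B4 sit at 0.04 to 0.05, OR51I1 at 1.74 and HBD at 1.06.

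In RS4-11 the log2 ratio of OR52N4, Y518R over 3R, was 1.75 (0.65 to 2.97), a 3.36-fold difference. It was the 1 member that could be set against the 2.23% of 13801 symbols that were at least 2-fold higher with Y518R in RS4-11. OR52N4 counts were also higher with Y518R in KOPN8 (5 with Y518R and 0 with 3R), P493-6 (4 and 0) and THP1 (1 and 0), at 5 counts or fewer. The direction was the opposite in MOLM13, with 2 counts with Y518R and 8 with 3R.

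Over all 8 lines, with lines as replicates, the edgeR quasi-likelihood test called 0 of 13043 genes at an adjusted p under 0.05 (0% called), with 394 at an unadjusted p under 0.05. None of the 47 members had enough counts to enter that fit, because the filter asks for counts in more libraries than 1 line provides. With no filter, 20 members were among 20082 genes tested, and 0 of the 20 were called, against 3 genes called in all (0.0149%). In that fit OR51B5 had a log2 change of 0.02 ± 0.29 (SE) and OR51B4 of 0.01 ± 0.44, each with an adjusted p of 1. OR52N4 had a log2 change of 1.56 ± 1.13 with an unadjusted p of 0.174 and an adjusted p of 1. DESeq2 called 1 gene, which was no member. For the 6 members at 10 or more K562 counts, the 8-line estimates rest almost wholly on the 1 K562 pair. OR51B5, for example, had 6584 counts in K562 and 10 in the 14 other libraries. The fit therefore had little means to call these members, and nothing is read from the 0 calls. The standard errors leave wide room around each estimate.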

How the data were processed

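Polyadenylated RNA was sequenced in 16 libraries, 1 per line and peptide. The authors deposited raw counts per gene symbol, with no normalization. Tools in the submitters' processing notes are HTSeq 0.6.1, TopHat2 2.1.1, CASAVA 1.8.4, DESeq and DESeq2 3.0, and the builds are GRCh38 and hg19, with no role for each. The 5 entries per library that name no gene were kept out of totals and tests.

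CPM were computed from the gene counts without the unnamed entries. Intervals are exact 95% intervals (Clopper-Pearson for shares and ratios, Poisson for sums). Within a line a count of 0 was set to 0.5 for counting 2-fold differences. Y518R was compared with 3R with the quasi-likelihood test of edgeR 4.0.16 (R 4.3.3), TMM scaling, filterByExpr at 10 counts, cell line as block and Benjamini-Hochberg adjustment. The line, given by the labels, pairs the libraries. DESeq2 1.42.0, DESeq2 size factors, no filter, no block and leaving out each line were alternatives. The fit with the filter was tested on simulated data, with changed genes drawn from those that pass the filter. No member passes it, so the simulation says nothing of the member results. With line as block, p-values rest on how the difference between Y518R and 3R varied between the lines. With 1 library per line and peptide, that spread may be partly technical.

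Positions are from GENCODE release 29 and promoters from RefSeq. The members and gene lists were chosen with earlier results of these data known. Members with 10 or more counts in a library, genes lying among the members, globin genes, erythroid and olfactory lists and the 5 highest receptors of other families are named.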

Additional observations from a re-analysis of the deposited data

Results flagged for a closer look

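Each member at 10 or more counts was examined for a library standing apart from the 7 others of its peptide, by the gap to the nearest library relative to the whole range. For normally distributed values chance would flag about 1 in 20 groups. Many counts here are at or near 0, so that rate does not apply, and 15 of 16 groups were flagged. The families were chosen because K562 was high, so the K562 cases repeat that choice. K562 Y518R stood apart for the member sum (179.3 CPM), OR51B5 (125.1), OR51B4 (46.5), OR51B2 (2.77), OR52D1 (2.04), OR52A5 (1.48) and OR51I1 (1.02 CPM). K562 3R stood apart for the member sum (174.2 CPM), OR51B5 (121.4), OR51B4 (44.9), OR51B2 (3.40), OR52D1 (1.87), OR52A5 (1.66) and OR51I1 (0.305 CPM). RS4-11 Y518R stood apart for OR52N4 (0.782 CPM), a member that was examined only because it reached 10 counts in RS4-11.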

How the results depend on the processing

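The K562 member sum depended on OR51B5 and on whether members with spans overlapping another gene were kept. Its mean of 176.7 CPM was 53.5 CPM without OR51B5. It was 1.67 CPM without the 31 members whose span overlaps a gene that is no member. These include OR51B5, OR51B4, OR51B2, OR52D1 and OR51I1, of which only OR51B5 has an exon overlapping one of another gene. Leaving them out does not show that their counts came from another gene. OR52A5 gave 1.57 CPM of what was left. With TMM scaling the mean of the full sum was 176.9 CPM. Across minimum counts of 5 and 20 and across either or both K562 libraries, 5 to 8 members passed. The K562 log2 ratio of the sum, Y518R over 3R, was 0.04, and 0.02 to 0.07 under the alternatives run. The interval left 0 only with TMM scaling, at 0.07 (0.01 to 0.13). The count of genes called over 8 lines was 0, but 3 with no filter (1 higher and 2 lower with Y518R) and 1 by DESeq2 (lower), none a member. Without the replicate block, and without each line in turn, 0 genes were called. Pairing by line changed no call but did change the edgeR p-values. Genes at an unadjusted p under 0.05 in that test were 394 with the block and 4 without it. Members other than OR51B5 and OR51B4 had at most 84 counts in a library, so depth limits what can be seen of them.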
